A study of Mus musculus with 9 samples.

Results

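Collagens are the main structural proteins of the extracellular matrix, and the 42 genes described here each encode a collagen alpha chain. They were taken by symbol: every row of the array table whose gene symbol in the platform annotation is "Col", a type number, "a" and a chain number, which gave 42 of 19505 measured genes, with 1 row each. The tissue was white fat from male mice, hybridized to Clariom S arrays at 1 array per sample and 3 per group. The ob/ob VE group consisted of C57BL/6JHamSlc-ob/ob mice that received Vigna umbellata (rice bean) extract, abbreviated VE, at 100 mg/kg by oral gavage for 6 weeks. The ob/ob vehicle group consisted of the same obese strain given vehicle for 42 days, and the wild type group of lean C57BL/6JHamSlc-+/+ mice given vehicle over the same time. All mice were obtained at 6 weeks of age, had 1 week of acclimatization and were fed standard chow. The ob/ob mice carry a nonsense mutation in the leptin gene in every cell, and the fat depot was not stated.

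Collagen chains assemble as triple helices that are secreted and then built into fibrils, networks or filaments. Fibrils of types I, III and V give tissue its tensile strength, the type IV network forms the basement membrane around every adipocyte and capillary, and type VI beaded filaments link the network to the fibrils. In fat, most fibrillar collagen is made by stromal fibroblasts, while adipocytes themselves secrete type IV and type VI chains, and matrix deposition is a known feature of obese adipose tissue.

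Values are normalized expression on the log2 scale, in which a difference of 1 is a doubling, and array medians over all genes lay between 6.11 and 6.26. Levels of genes were set only against the array median and were not ranked against each other, because each gene has its own probes. White adipocyte markers were high on every array, with list means of 17.10 to 17.35 in ob/ob VE, 16.92 to 17.19 in ob/ob vehicle and 16.04 to 17.35 in wild type tissue. Lep itself was at 18.75 to 19.02 in ob/ob VE, 18.77 to 19.24 in ob/ob vehicle and 13.22 to 16.72 in wild type tissue, and whether its probes span the mutation is unknown, so its level is no check of genotype. Wild type arrays 1 and 2 stood apart from the third. The mean of 12 epithelium markers was 4.41 to 4.83 on the 6 ob/ob arrays, 8.01 on wild type array 3, and 10.23 and 10.65 on wild type arrays 1 and 2. Smooth muscle markers averaged 7.56 to 8.06 on ob/ob arrays, 8.42 on wild type array 3, and 11.62 and 15.29 on wild type arrays 1 and 2. The differences from wild type of the main chains and of the called genes are therefore also given with wild type arrays 1 and 2 left out, which leaves a single wild type array that is assumed to vary like the other groups. In bulk tissue, fewer cells of a type and less RNA per cell cannot be told apart.

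In ob/ob vehicle tissue relative to wild type tissue, 3 chains rose and 2 fell at an adjusted p under 0.05 (limma, Benjamini-Hochberg over 19572 rows, two-sided). Col5a1, Col4a2 and Col6a2 were the higher ones, and Col4a4 and Col6a5 the lower ones. These 5 of 42 chains are 11.9%, against a background of 14.1% over all rows tested (9.02% higher and 5.05% lower), so the share of chains called was no larger than that of all rows. The median difference of the 42 chains was −0.20, against −0.04 over all rows, with 15 chains above 0 and 27 below. At an unadjusted p under 0.05 the count was 14 of 42, or 33.3%, against 28.4% of all rows. All 3 arrays of both groups were separated without overlap for 6 chains in the higher direction (15.7% of all rows) and for 8 in the lower direction (13.1% of all rows). With 3 arrays on each side, an exact permutation test could not reach a p below 0.1, and the calls depend on the spread that limma pools over the 9 arrays and all rows. The submitters' own threshold, an unadjusted p under 0.05 with a fold over 1.1, gave 6 chains higher (15.7% of all rows) and 8 lower (12.7%).

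The promoter windows of 2 called chains, Col5a1 and Col6a2, and of 2 fibrillar chains that were not called, Col1a2 and Col3a1, are shown for their base composition. Each window covers the 200 bases before the first base of the gene in RefSeq annotation of GRCm38.p6, written 5′ to 3′ on the strand of the gene. They lie at chr2:27886181-27886380 (plus strand) for Col5a1, chr10:76623631-76623830 (minus strand) for Col6a2, chr6:4505418-4505617 (plus strand) for Col1a2 and chr1:45311338-45311537 (plus strand) for Col3a1. Capitals mark matches, on either strand, to 3 promoter motifs. The TATA box was searched as TATAAA. The CCAAT box was searched by those 5 letters, and the GC box, the core of an Sp1 site, as GGGCGG. No match in these 4 windows overlaps another.
Col5a1: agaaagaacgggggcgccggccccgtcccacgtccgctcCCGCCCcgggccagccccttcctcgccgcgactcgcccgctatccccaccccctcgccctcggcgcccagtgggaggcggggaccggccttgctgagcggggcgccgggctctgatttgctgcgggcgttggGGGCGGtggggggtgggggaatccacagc
Col6a2: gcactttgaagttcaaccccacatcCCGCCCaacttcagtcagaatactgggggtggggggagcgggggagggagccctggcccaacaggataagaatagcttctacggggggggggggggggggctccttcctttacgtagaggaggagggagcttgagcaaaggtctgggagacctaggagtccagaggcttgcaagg
Col1a2: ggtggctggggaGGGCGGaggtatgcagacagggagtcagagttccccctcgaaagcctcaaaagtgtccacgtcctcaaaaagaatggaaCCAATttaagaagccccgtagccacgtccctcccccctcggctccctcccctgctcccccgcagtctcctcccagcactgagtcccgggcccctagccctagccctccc
Col3a1: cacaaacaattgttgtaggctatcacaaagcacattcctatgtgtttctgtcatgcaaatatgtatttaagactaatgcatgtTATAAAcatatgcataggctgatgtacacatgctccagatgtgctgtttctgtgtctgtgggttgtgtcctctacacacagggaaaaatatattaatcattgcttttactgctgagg
The Col5a1 window was 77.0% G or C with 2 GC boxes, and that of Col6a2 was 61.0% with 1. The Col1a2 window was 63.5% G or C with 1 CCAAT box and 1 GC box, whereas that of Col3a1 was 37.5% with 1 TATA box and neither of the others. The median over 21982 such windows was 51.5%. A window was kept only where the promoter sequence used began at least 200 bases before the first base of the gene, within a set limit. That left a window for 19 of the 42 chains, matched by symbol. The GC box was found in 10 of the 19, against 27.4% of all windows. The CCAAT box was found in 6, against 30.4%, and the TATA box in 3, against 11.6%. These are letter matches, and no binding was measured.

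Among the fibril-forming chains, Col5a1 was the single call of 11 (9.09%, against 14.1% of all rows). Col5a1 encodes the main chain of type V collagen, which starts fibrils and limits their width. It was at 7.60, 7.04 and 6.70 in ob/ob VE, 7.47, 6.98 and 7.22 in ob/ob vehicle and 4.49, 4.84 and 5.15 in wild type tissue. Every ob/ob array therefore lay above every wild type array. The ob/ob vehicle mean of 7.22 ± 0.25 exceeded the wild type mean of 4.83 ± 0.33 (SD, n = 3 each) by 2.40 ± 0.29 (SE; 5.27-fold; 95% interval 1.75 to 3.05; adjusted p = 0.000531). Leaving out wild type arrays 1 and 2 gave 2.07 (adjusted p = 0.00798).

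The partners of Col5a1 did not pass the test. Col5a2, the second type V chain, was at 7.80, 6.52 and 6.40 in ob/ob VE, 6.94, 6.68 and 7.26 in ob/ob vehicle and 6.85, 6.52 and 6.79 in wild type tissue, a difference between the vehicle groups of 0.24 ± 0.36 (adjusted p = 0.722; 0.17 without wild type arrays 1 and 2). Col5a3, a type V chain of restricted distribution, was at 6.23, 6.33 and 6.30 in ob/ob VE, 5.88, 5.87 and 5.92 in ob/ob vehicle and 6.03, 5.91 and 5.97 in wild type tissue. Its vehicle groups overlapped, with a difference of −0.08 ± 0.19 (adjusted p = 0.834), and −0.08 against wild type array 3 alone.

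The classical fibrillar chains of types I and III also missed the threshold between the vehicle groups. Col1a1, the more abundant chain of the type I trimer, was at 12.12, 10.72 and 10.51 in ob/ob VE, 12.15, 11.17 and 11.74 in ob/ob vehicle and 10.66, 10.93 and 11.31 in wild type tissue. Col1a2, its partner chain, was at 12.06, 10.43 and 10.86 in ob/ob VE, 11.86, 11.39 and 12.19 in ob/ob vehicle and 10.42, 11.10 and 12.19 in wild type tissue. Col3a1, the only chain of type III collagen, was at 15.79, 13.70 and 13.89 in ob/ob VE, 15.65, 14.52 and 15.52 in ob/ob vehicle and 14.50, 14.68 and 15.74 in wild type tissue. The 3 groups overlapped for each of these genes, and all 3 genes had ob/ob VE array 1 highest in its group. The ob/ob vehicle minus wild type difference was 0.72 ± 0.43 for Col1a1 (95% interval −0.23 to 1.67; adjusted p = 0.315), 0.58 ± 0.51 for Col1a2 (−0.55 to 1.71; adjusted p = 0.517) and 0.26 ± 0.57 for Col3a1 (−1.01 to 1.52; adjusted p = 0.819). Leaving out wild type arrays 1 and 2 gave 0.38, −0.38 and −0.51 for the 3 genes, so Col1a2 and Col3a1 have no stable sign. The upper bounds leave room for a difference of more than 2-fold in each of them.

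The other 5 fibril-forming chains were not called. Col2a1, the main chain of cartilage fibrils, had non-overlapping groups and a difference of 0.72 ± 0.24 (adjusted p = 0.0815; 0.77 without wild type arrays 1 and 2), at a level below the array median on all 9 arrays. Col11a1, Col11a2, Col24a1 and Col27a1, minor fibrillar chains known mostly from cartilage and bone, had differences between −0.52 (Col27a1) and −0.01 (Col11a2).

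**Figure D1:**
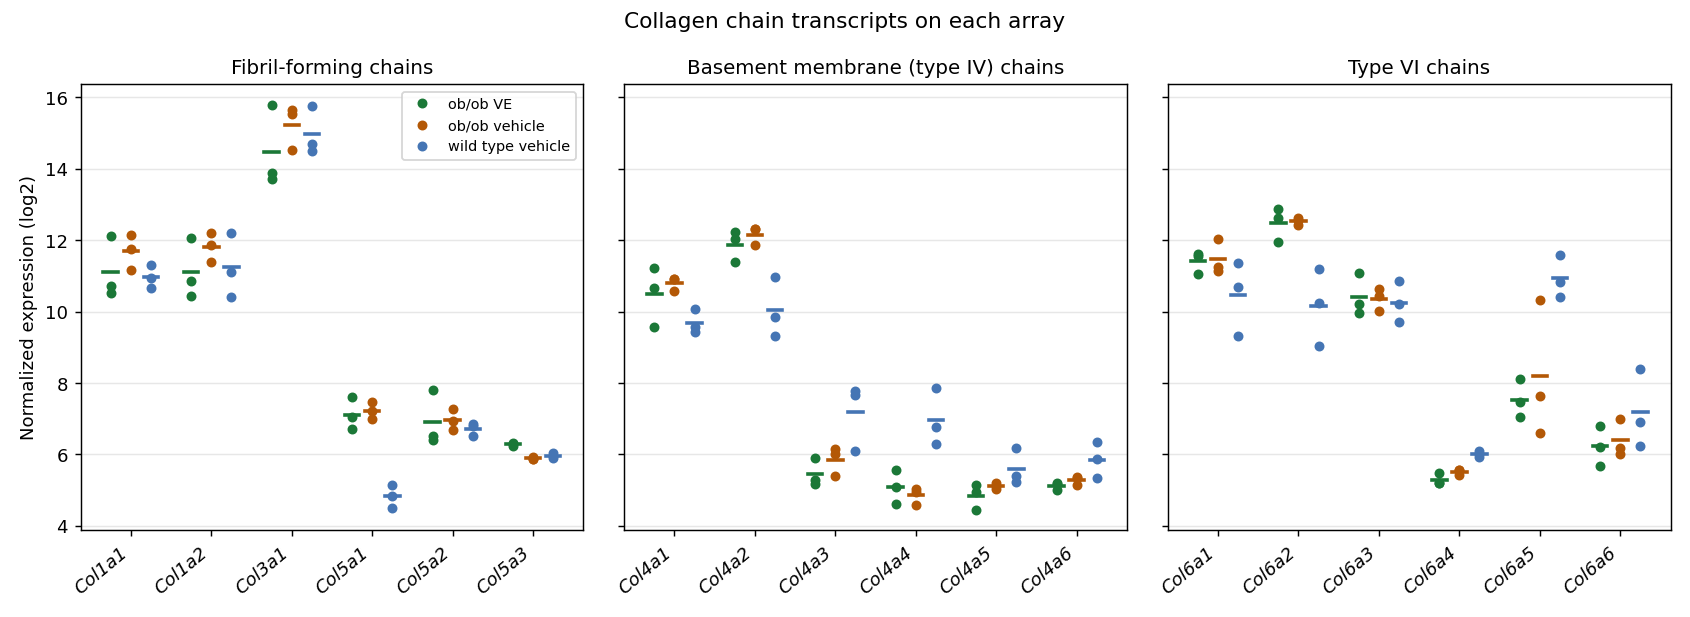
Normalized expression (log2) of the main fibril-forming, type IV and type VI chains, with 1 point per array, a bar at each group mean, and ob/ob VE, ob/ob vehicle and wild type vehicle from left to right within each gene. The 6 ob/ob arrays sit above the 3 wild type arrays for Col5a1, Col4a2 and Col6a2 and below them for Col4a4 and Col6a5, while the groups overlap for Col1a1, Col1a2 and Col3a1.

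Type IV chains differed in both directions between the vehicle groups, with 1 of 6 called higher and 1 called lower (33.3%, against 14.1% of all rows). Col4a1 and Col4a2 encode the chains of the basement membrane trimer found in nearly all tissues. Col4a2 was at 12.22, 12.03 and 11.38 in ob/ob VE, 12.30, 11.85 and 12.32 in ob/ob vehicle and 9.32, 9.85 and 10.97 in wild type tissue. It was higher in ob/ob vehicle tissue by 2.11 ± 0.41 (4.32-fold; 95% interval 1.21 to 3.01; adjusted p = 0.00709), with no overlap between ob/ob and wild type arrays. Without wild type arrays 1 and 2 the difference was 1.19 and the call was lost (adjusted p = 0.0861). Col4a1 was at 11.23, 10.65 and 9.56 in ob/ob VE, 10.91, 10.58 and 10.92 in ob/ob vehicle and 10.06, 9.42 and 9.57 in wild type tissue. The vehicle groups did not overlap, but the difference of 1.12 ± 0.39 missed the threshold (95% interval 0.25 to 1.99; adjusted p = 0.0866). In a fit of the 2 vehicle groups alone it passed (adjusted p = 0.0437), as it did without ob/ob VE array 3 (adjusted p = 0.0301). The Col4a1 difference was 1.23 without wild type arrays 1 and 2 (adjusted p = 0.192).

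Col4a3 and Col4a4, chains of a second trimer known from the glomerular and alveolar basement membranes, lay lower in the obese tissue. Col4a4 was at 4.62, 5.08 and 5.57 in ob/ob VE, 4.60, 4.94 and 5.03 in ob/ob vehicle and 6.28, 6.76 and 7.85 in wild type tissue. It fell by 2.11 ± 0.40 in ob/ob vehicle tissue (SE, log2; 4.31-fold; adjusted p = 0.00642). With wild type arrays 1 and 2 left out the difference was −2.99. Wild type array 3, which had the lowest epithelium marker mean in its group, had the highest Col4a4. Wild type array 2, which had the highest such mean, had more Col4a4 than wild type array 1. The part of epithelium in the Col4a4 values was not tested. Col4a3 was at 5.29, 5.18 and 5.89 in ob/ob VE, 6.01, 5.39 and 6.16 in ob/ob vehicle and 6.11, 7.79 and 7.67 in wild type tissue. Wild type array 1 lay within the ob/ob vehicle range, and the difference of −1.34 ± 0.44 did not pass (adjusted p = 0.073). It passed without wild type array 1 (−1.88; adjusted p = 0.00577) and without wild type arrays 1 and 2 (−1.82; adjusted p = 0.0184).

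Col4a5 takes part in that trimer and, together with Col4a6, in another one. Col4a5 was at 4.96, 4.44 and 5.15 in ob/ob VE, 5.21, 5.02 and 5.13 in ob/ob vehicle and 5.22, 6.19 and 5.41 in wild type tissue. Col4a6 was at 5.19, 5.0 and 5.16 in ob/ob VE, 5.36, 5.14 and 5.33 in ob/ob vehicle and 5.87, 6.35 and 5.33 in wild type tissue. Their differences between the vehicle groups were −0.49 ± 0.30 (adjusted p = 0.334) and −0.57 ± 0.27 (adjusted p = 0.199), and neither passed. They were −0.29 and −0.05 without wild type arrays 1 and 2. Both had their highest value on wild type array 2, which also had the highest epithelium and smooth muscle marker means. The part of those markers in the values was not tested.

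Type VI chains likewise held 1 call in each direction among 6 (33.3%, against 14.1% of all rows). Col6a1 and Col6a2 encode the chains present in every type VI monomer. Col6a2 was at 12.87, 12.63 and 11.94 in ob/ob VE, 12.63, 12.42 and 12.55 in ob/ob vehicle and 9.04, 10.24 and 11.18 in wild type tissue. All 6 ob/ob arrays lay above the wild type arrays, and the vehicle groups differed by 2.38 ± 0.47 (5.21-fold; 95% interval 1.33 to 3.43; adjusted p = 0.00812). Against wild type array 3 alone the difference was 1.35, just inside the threshold (adjusted p = 0.0499). Col6a1 was at 11.62, 11.55 and 11.06 in ob/ob VE, 11.13, 11.24 and 12.03 in ob/ob vehicle and 9.32, 10.69 and 11.35 in wild type tissue. Wild type array 3 overlapped the ob/ob range, and the difference of 1.01 ± 0.47 did not pass (adjusted p = 0.192). It was 0.12 without wild type arrays 1 and 2, and 1.46 without wild type array 3 (adjusted p = 0.0406).

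The third chain of a type VI monomer is the product of Col6a3, Col6a4, Col6a5 or Col6a6. Col6a3, whose C-terminal fragment endotrophin is known from obese fat, was at 11.07, 10.20 and 9.97 in ob/ob VE, 10.62, 10.01 and 10.43 in ob/ob vehicle and 9.71, 10.85 and 10.20 in wild type tissue. The 3 groups overlapped, and the vehicle groups differed by 0.10 ± 0.37 (95% interval −0.72 to 0.92; adjusted p = 0.896; 0.15 without wild type arrays 1 and 2). Col6a5 was at 8.11, 7.04 and 7.46 in ob/ob VE, 7.64, 6.60 and 10.32 in ob/ob vehicle and 10.41, 11.58 and 10.84 in wild type tissue. It fell by 2.76 ± 0.78 in ob/ob vehicle tissue (SE, log2; 6.76-fold; adjusted p = 0.0417). The third ob/ob vehicle array, at 10.32, lay just under the lowest wild type array. This call was lost in a fit of the 2 groups alone (adjusted p = 0.0954), without any single array other than ob/ob vehicle array 3, and without wild type arrays 1 and 2 (−2.65; adjusted p = 0.169). Col6a6 was at 6.81, 6.20 and 5.67 in ob/ob VE, 6.19, 6.01 and 6.99 in ob/ob vehicle and 6.92, 6.23 and 8.40 in wild type tissue, with a difference of −0.79 ± 0.53 (adjusted p = 0.379). Set against wild type array 3 alone, which held the highest Col6a6 value, the difference was −2.00 (adjusted p = 0.0294). Col6a4 was at 5.21, 5.48 and 5.20 in ob/ob VE, 5.57, 5.57 and 5.42 in ob/ob vehicle and 6.11, 6.00 and 5.92 in wild type tissue, without overlap but with a difference of −0.49 ± 0.20 (adjusted p = 0.142), and −0.40 without wild type arrays 1 and 2.

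Outside these 3 families, none of 19 chains was called between the vehicle groups in limma, and 5 had an unadjusted p under 0.05, a cut that 28.4% of all rows met. Col14a1, a FACIT chain (fibril-associated collagen with interrupted triple helices) that coats fibrils in soft tissue, differed by 1.03 ± 0.35 without overlap (adjusted p = 0.083), and by 0.58 without wild type arrays 1 and 2. The other 7 FACIT chains lay between −0.56 (Col16a1) and −0.01 (Col9a3). The multiplexins, basement membrane collagens of vessels, were close to 0: Col15a1 differed by 0.05 ± 0.44 (95% interval −0.93 to 1.03) and Col18a1, the source of endostatin, by −0.01 ± 0.24 (−0.54 to 0.52). These became −0.21 and −0.33 without wild type arrays 1 and 2. Col15a1 was at 11.43, 9.83 and 9.82 in ob/ob VE, 10.72, 9.93 and 10.83 in ob/ob vehicle and 10.51, 10.12 and 10.70 in wild type tissue. Col18a1 was at 11.65, 11.48 and 11.18 in ob/ob VE, 11.51, 11.58 and 11.30 in ob/ob vehicle and 11.32, 11.31 and 11.79 in wild type tissue. The groups overlapped for both. The 4 transmembrane chains ran from −0.67 (Col23a1) to 0.02 (Col25a1), and the short-chain network collagens from −0.62 (Col10a1) to 0.16 (Col8a1). Col26a1 had the lowest difference of the 19, at −0.77 ± 0.27 without overlap (adjusted p = 0.0892). It passed without wild type array 3 (−0.99; adjusted p = 0.0292) and was at −0.33 without wild type arrays 1 and 2. Col28a1 differed by −0.35 ± 0.32 (adjusted p = 0.542).

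**Figure D2:**
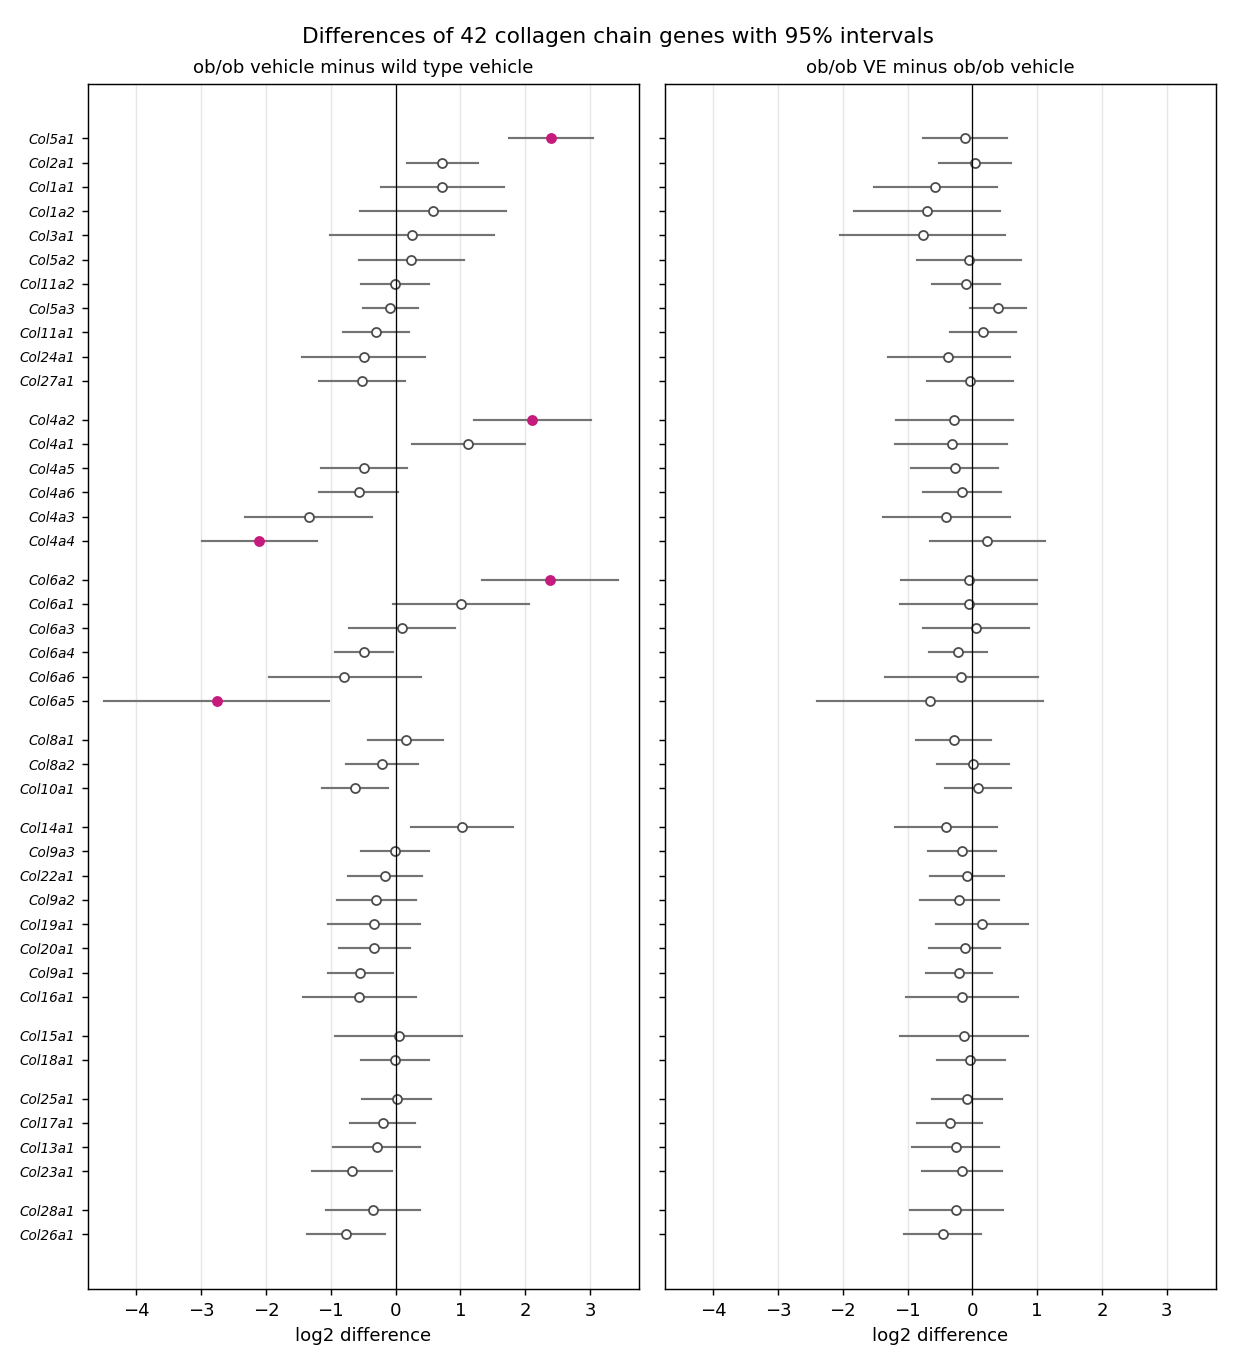
Log2 difference of each of the 42 chains with its 95% interval (x axis), grouped by collagen family, for ob/ob vehicle minus wild type vehicle (left) and ob/ob VE minus ob/ob vehicle (right), with filled points at an adjusted p under 0.05. The 5 filled points are all on the left, from −2.76 for Col6a5 to 2.40 for Col5a1, and every interval on the right includes 0.

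Several chain genes lie side by side in the genome, and most neighbours had differences of the same sign. In the RefSeq annotation, 8 pairs of chain genes are direct neighbours among protein-coding genes, such as Col4a1 with Col4a2, Col4a3 with Col4a4, and Col6a1 with Col6a2. In 8 of the 8 pairs both ob/ob vehicle minus wild type differences had the same sign, against 52.6% of 17345 neighbouring pairs over the genome. The count was 7 of 8, against 52.1%, without wild type arrays 1 and 2, since Col3a1 was then at −0.51 and Col5a2 at 0.17. The run of Col6a6, Col6a5 and Col6a4 on chromosome 9 supplies 2 of the 8 pairs, so they are not independent, and the count was not tested. Within a pair the sizes differed, with 1.12 for Col4a1 beside 2.11 for Col4a2, and 1.01 for Col6a1 beside 2.38 for Col6a2, as fitted above.

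The extract was set against vehicle in ob/ob mice to see whether it moved the adipose transcripts of obese animals. None of the 42 chains was called between ob/ob VE and ob/ob vehicle tissue by limma, and 0 had an unadjusted p under 0.05, or met the submitters' threshold (2.91% of all rows higher and 1.66% lower). Over all 19572 rows the fit called 5 (0.0255%), and 893 (4.56%) had an unadjusted p under 0.05. Of the chains, 34 lay below 0 and 8 above, with a median of −0.16, against 10431 rows below 0, 9107 above and a median of −0.02 over all rows. The 95% intervals reached 0.67 to either side of the estimate for the median chain and 1.74 for the widest, Col6a5. A call needs an adjusted p under 0.05 over 19572 rows, a stricter cut than these intervals. Changes of that size, and larger ones, could therefore go uncalled with 3 arrays per group.

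The largest downward difference was that of Col3a1, whose values are given above, at −0.77 ± 0.57 (95% interval −2.04 to 0.50; unadjusted p = 0.206; adjusted p = 1). Col1a2 followed at −0.70 ± 0.51 (−1.83 to 0.43), then Col6a5 at −0.65 ± 0.78 (−2.39 to 1.09) and Col1a1 at −0.57 ± 0.43 (−1.52 to 0.38). In the 3 genes of types I and III ob/ob VE array 1 lay within or above the vehicle range, while VE arrays 2 and 3 lay below the vehicle mean. Without ob/ob VE array 1 the differences were −1.44 for Col3a1, −1.17 for Col1a2 and −1.07 for Col1a1, and the adjusted p stayed at 1. Of the 16 chains above the array median on all 9 arrays, ob/ob VE array 1 was the highest VE array in 13. Over all 42 chains it was the highest in 21, against 10 for VE array 2 and 11 for VE array 3. Among the 16, ob/ob vehicle array 3 and wild type array 3 were each the highest of their group in 9. The mean of 8 fibroblast and stromal progenitor markers was 11.59, 10.07 and 10.53 on ob/ob VE arrays 1 to 3, against 10.84, 10.46 and 11.43 on the ob/ob vehicle arrays. It was 9.88, 10.27 and 10.84 on wild type arrays 1 to 3. Array 1 was thus also the highest VE array for these markers. Between the vehicle groups their median difference was 0.93, with 1 of 8 called (12.5%, against 14.1% of all rows). Their part in the collagen values was not tested.

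By the size of the test statistic, the 3 chains that stood out most were Col5a3, Col26a1 and Col17a1. Col5a3, with the array values given above, was higher in ob/ob VE tissue by 0.40 ± 0.19 (95% interval −0.03 to 0.82; unadjusted p = 0.064; adjusted p = 1) and was the single chain whose VE and vehicle arrays did not overlap, against 5.77% of all rows in that direction. In the lower direction 0 chains were without overlap (6.79% of all rows). Col26a1, a little-studied chain first described in testis and ovary, was at 3.00, 3.42 and 3.37 in ob/ob VE, 3.97, 3.41 and 3.80 in ob/ob vehicle and 4.76, 4.67 and 4.06 in wild type tissue. Its VE difference of −0.46 ± 0.27 did not pass, and the groups overlapped. Col17a1, the transmembrane collagen of epithelial hemidesmosomes, was at 3.29, 3.41 and 2.94 in ob/ob VE, 3.37, 3.76 and 3.56 in ob/ob vehicle and 3.90, 3.61 and 3.78 in wild type tissue, with a VE difference of −0.35 ± 0.23. Both genes lay at or below the array median on all 9 arrays.

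None of the 5 chains called between the vehicle groups passed for the extract, in a comparison that shares the ob/ob vehicle arrays. The ob/ob VE minus ob/ob vehicle difference was −0.11 ± 0.29 for Col5a1 (95% interval −0.76 to 0.54), −0.28 ± 0.41 for Col4a2 (−1.18 to 0.62) and −0.05 ± 0.47 for Col6a2 (−1.10 to 0.99). It was 0.23 ± 0.40 for Col4a4 (−0.65 to 1.12), while Col6a5, given above, had the widest interval of the 42 chains.

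**Figure D3:**
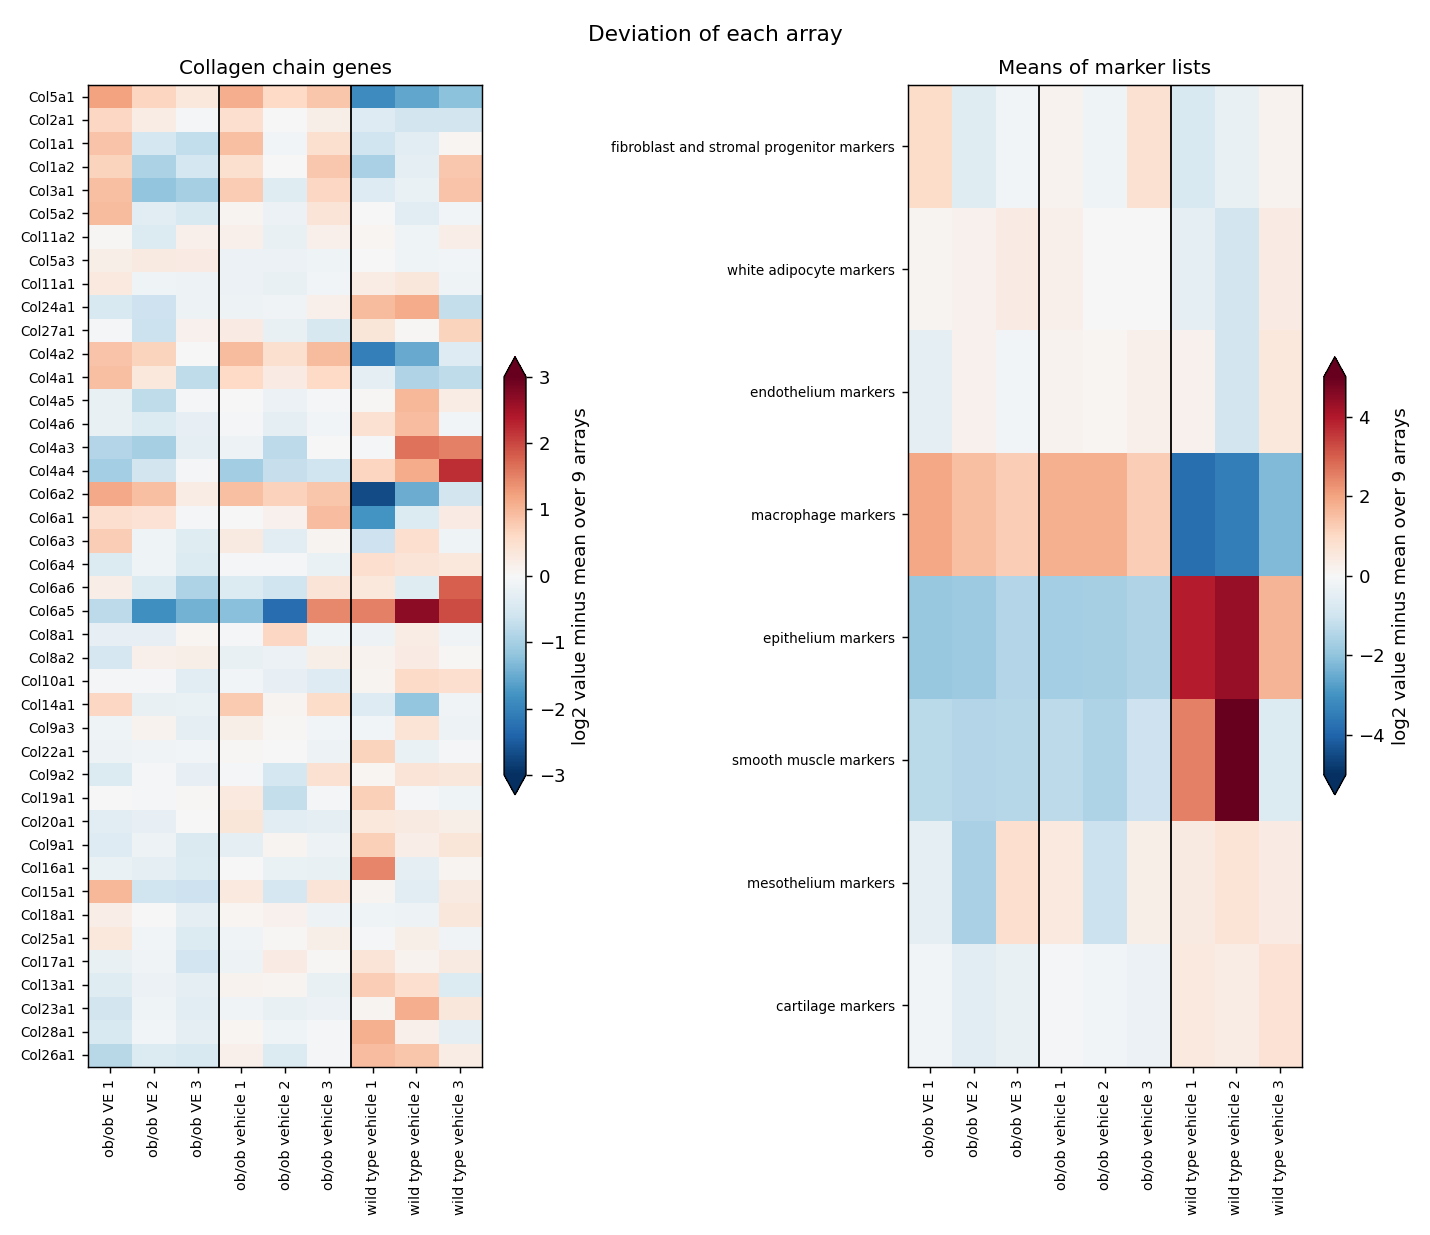
Deviation of each array (columns, ob/ob VE, ob/ob vehicle and wild type vehicle from left to right) from the mean over 9 arrays in log2 units, for each chain (left) and for the means of 8 marker lists (right). The wild type columns are blue for Col5a1, Col4a2 and Col6a2, ob/ob VE array 1 is red across Col1a1, Col1a2, Col3a1 and Col15a1, and the epithelium and smooth muscle means peak on wild type array 2, at 10.65 and 15.29.

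Extract-treated ob/ob tissue was also compared directly with wild type tissue, a comparison that shares the wild type arrays with the one between the vehicle groups. In it 9 of 42 chains were called (21.4%), against 20.0% of all rows, with 3 higher (12.4% of all rows) and 6 lower (7.58%). At an unadjusted p under 0.05 there were 15 (35.7%), against 33.9% of all rows. Groups were without overlap for 5 chains in the higher direction (19.5% of all rows) and 13 in the lower (17.7%). By the submitters' threshold the counts were 4 higher (18.3%) and 11 lower (15.6%). Col5a1, Col4a2 and Col6a2 were higher, by 2.29 ± 0.29, 1.83 ± 0.41 and 2.33 ± 0.47 (adjusted p = 0.000626, 0.0117 and 0.00749). Col4a4 and Col6a5 were lower, at −1.87 ± 0.40 and −3.41 ± 0.78 (adjusted p = 0.00948 and 0.0134). Col4a3 was lower at −1.74 ± 0.44 (adjusted p = 0.0209), with no overlap between the VE and wild type arrays. Without wild type arrays 1 and 2, Col4a2 was at 0.91 (adjusted p = 0.16) and Col6a5 at −3.30 (adjusted p = 0.0765), and neither passed, while Col5a1, Col6a2, Col4a4 and Col4a3 still did.

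Col26a1, Col6a4 and Col9a1 were called lower in this comparison as well. Col26a1 differed by −1.23 ± 0.27 (adjusted p = 0.0109) and Col6a4 by −0.71 ± 0.20 (adjusted p = 0.0332). Col9a1, a FACIT chain of cartilage, was at 5.41, 5.64 and 5.37 in ob/ob VE, 5.53, 5.87 and 5.65 in ob/ob vehicle and 6.52, 6.00 and 6.17 in wild type tissue, a difference of −0.76 ± 0.23 (adjusted p = 0.0413). The calls of all 3 were lost without wild type arrays 1 and 2 (adjusted p = 0.156 for Col26a1, 0.197 for Col6a4 and 0.163 for Col9a1). Those of Col6a4 and Col9a1 were also lost when only the 2 groups were fitted (adjusted p = 0.0695 and 0.077). Over the 19 alternatives run, the call of Col6a4 held in 8 and that of Col9a1 in 6. Col6a4 lay at or below the array median on all 9 arrays, and Col9a1 lay above it on 1. Across the 3 groups together, the moderated F test called 7 chains (16.7%), against 15.7% of all rows.

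Genes that act on collagen surround the chains in the pathway. The lists of such genes were chosen with earlier results of these data known, so their shares are no independent evidence. Of 56 measured genes that fold, process, bind or break down collagen, 18 rose and 1 fell in ob/ob vehicle tissue relative to wild type (33.9%, against the 14.1% of all rows), with a median difference of 0.65. Without wild type arrays 1 and 2 the count was 10 (17.9%), against 11.3% of all rows in that fit. Markers of macrophages, which also express several of these genes, rose in 11 of 11 cases with a median of 4.63, and markers of epithelium fell in 12 of 12 with a median of −4.46. The list mean of the macrophage markers was 12.99 to 13.68 in ob/ob VE, 12.99 to 13.52 in ob/ob vehicle and 7.97 to 9.52 in wild type tissue. The part of either cell type in these genes was not tested.

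Of 18 genes for folding and modification in the endoplasmic reticulum, 4 rose (22.2%, against 9.02% of all rows). The lysyl hydroxylase Plod1 was at 12.31, 12.36 and 11.60 in ob/ob VE, 11.84, 12.18 and 11.70 in ob/ob vehicle and 8.48, 8.74 and 9.53 in wild type tissue, and it was higher between the vehicle groups by 2.99 ± 0.33 (adjusted p = 0.000288). The prolyl 3-hydroxylation cofactor Crtap, the hydroxylysine galactosyltransferase Colgalt1 and the collagen chaperone Serpinh1 rose by 2.35 ± 0.60, 2.06 ± 0.27 and 1.86 ± 0.37 (adjusted p = 0.027, 0.000773 and 0.00871). The lowest statistic belonged to Colgalt2, a second galactosyltransferase, at −0.20 ± 0.27, which did not pass. Crtap at 1.85 and Serpinh1 at 1.29 did not pass without wild type arrays 1 and 2 (adjusted p = 0.214 and 0.122).

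Of 17 genes of procollagen processing and fibril assembly, 7 rose (41.2%, against 9.02% of all rows). Lox, the lysyl oxidase that starts collagen crosslinks, was at 14.67, 14.86 and 13.61 in ob/ob VE, 14.26, 14.24 and 14.76 in ob/ob vehicle and 8.90, 9.81 and 10.91 in wild type tissue. All 6 ob/ob arrays lay above the wild type arrays (adjusted p = 0.000273 between the vehicle groups). The procollagen C-proteinase enhancers Pcolce2 and Pcolce rose by 3.19 ± 0.88 and 2.79 ± 0.53, the lysyl oxidase relative Loxl1 by 2.74 ± 0.70, the small proteoglycan Bgn by 2.26 ± 0.42, the C-proteinase Bmp1 by 1.48 ± 0.43 and the collagen-binding protein Sparc by 1.37 ± 0.36 (adjusted p between 0.00575 and 0.0481). Of these 6, only Bgn passed without wild type arrays 1 and 2. Pcolce2 was then at 1.79 (adjusted p = 0.342), Pcolce at 1.67 (0.0733) and Loxl1 at 1.36 (0.218), while Bmp1 was at 0.54 (0.515) and Sparc at 0.47 (0.343). The fibril-coating proteoglycan Dcn was level between the vehicle groups at −0.04 ± 0.47, and the lowest statistic was that of the lysyl oxidase relative Loxl4, at −0.38 ± 0.28, which did not pass.

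Among 9 receptors, Mrc2 and Lair1 rose (22.2%, against 9.02% of all rows). Mrc2, the endocytic receptor that takes up collagen fragments, was at 13.27, 13.79 and 12.63 in ob/ob VE, 13.25, 13.07 and 13.19 in ob/ob vehicle and 7.53, 7.0 and 7.24 in wild type tissue, a difference of 5.91 ± 0.30 between the vehicle groups (adjusted p = 4.89e-06). Lair1, an inhibitory collagen receptor of leukocytes, rose by 2.90 ± 0.35 (adjusted p = 0.000534). Itga2, an integrin subunit that binds collagen on epithelium and platelets, was at 4.76, 4.41 and 4.79 in ob/ob VE, 5.22, 4.54 and 5.29 in ob/ob vehicle and 12.84, 12.97 and 4.76 in wild type tissue. Its difference of −5.17 ± 1.73 did not pass (adjusted p = 0.0774), and against wild type array 3 alone it was 0.26.

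Of 12 breakdown genes, 5 rose and 1 fell (50% called, against 14.1% of all rows). Ctsk, the collagenolytic cathepsin K, was at 12.75, 12.92 and 12.70 in ob/ob VE, 12.63, 12.97 and 12.30 in ob/ob vehicle and 7.14, 7.44 and 8.19 in wild type tissue, a difference of 5.04 ± 0.30 (adjusted p = 1.4e-05). The lysosomal proteases Ctsb and Ctsl rose by 2.87 ± 0.29 and 2.70 ± 0.38, the fibroblast surface protease Fap by 2.39 ± 0.42 and the gelatinase Mmp2 by 1.68 ± 0.44 (adjusted p between 0.000176 and 0.0296). The second gelatinase, Mmp9, was at 3.53, 3.72 and 3.44 in ob/ob VE, 3.15, 3.63 and 3.15 in ob/ob vehicle and 4.23, 5.98 and 5.69 in wild type tissue and fell by 1.99 ± 0.41 (adjusted p = 0.00953). Without wild type arrays 1 and 2, the calls of Plod1, Colgalt1, Lox, Bgn, Mrc2, Lair1, Ctsk, Ctsb, Ctsl and Mmp9 were kept, while Fap at 1.64 (adjusted p = 0.0516) and Mmp2 at 0.80 (0.359) did not pass.

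With the extract, 0 of the 56 genes were called in limma, and 2 had an unadjusted p under 0.05 (3.57%, against 4.56% of all rows), both in the folding list. The prolyl isomerase Ppib, which assists triple helix formation, was at 12.23, 11.93 and 12.03 in ob/ob VE and at 11.55, 10.61 and 10.99 in ob/ob vehicle tissue, a difference of 1.01 ± 0.30 (unadjusted p = 0.00765; adjusted p = 0.748). The VE and vehicle arrays did not overlap for this gene. The other, P4hb, was higher by 0.80 ± 0.28 (unadjusted p = 0.0159; adjusted p = 0.936), also without overlap. Of the 56 genes, 2 were without overlap in the higher direction (5.77% of all rows) and 2 in the lower (6.79% of all rows). In ob/ob VE relative to wild type tissue, 20 of the 56 were higher and 2 lower (39.3%), against 20.0% of all rows (12.4% higher and 7.58% lower). Without wild type arrays 1 and 2 there were 10 higher and 1 lower (19.6%), against 14.2% of all rows. Itga2 was 1 of the 2 lower genes, at −5.54 (adjusted p = 0.0485), and it was at −0.11 without wild type arrays 1 and 2 (adjusted p = 0.898).

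**Figure D4:**
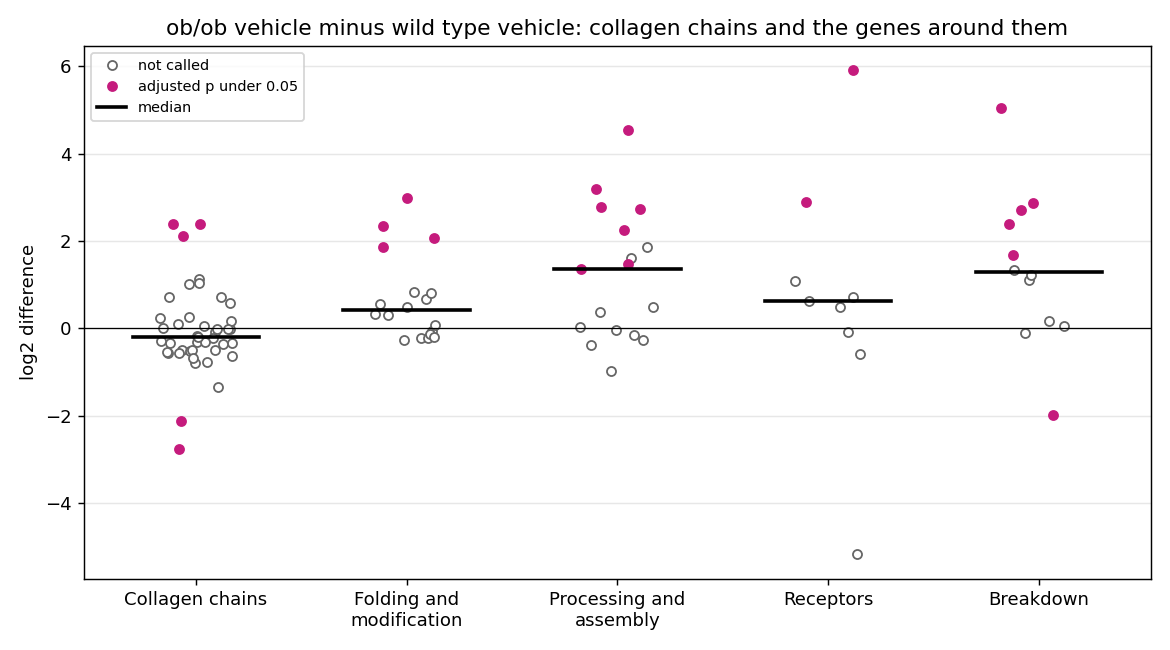
Log2 difference, ob/ob vehicle minus wild type vehicle, of each collagen chain and of each gene in 4 lists of genes around collagen, with filled points at an adjusted p under 0.05 and a bar at the median of each list. The chains have a median of −0.20 with 5 filled points of 42, while the 4 lists hold 19 filled points of 56, from Mmp9 at −1.99 to Mrc2 at 5.91. The lists were chosen with earlier results of these data known.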

How the data were processed

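RNA of white adipose tissue, 100 ng per sample, was hybridized to 9 Clariom S mouse arrays, per the series' design text. The deposited values are log2 expression per transcript cluster, normalized by the authors with SST-RMA, a robust multi-chip average after signal space transformation. The software was Transcriptome Analysis Console, version 4 per the submitters' processing notes, and the design text gives 4.0.2. Genome build, scan order and detection calls are not given in the sources used here, so signal over background was not assessed. Arrays have no read depth, and precision is limited by how many there are.

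Of 22206 rows, 2634 have no gene symbol and were left out, leaving 19572 rows for 19505 genes. A gene with several rows (55 genes, no collagen chain) was represented by the row of highest mean. limma 3.58.1 in R 4.3.3 fitted 3 group means over the 9 arrays with moderated variances (4.02 prior degrees of freedom). Benjamini-Hochberg adjustment ran over 19572 rows within each comparison, and a call is an adjusted p under 0.05. Fold sizes were computed from the log2 differences. SE is that of the fitted difference, and SD that of 3 arrays. The series text gives 3 mice per group. Scripts were tested on simulated data.

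Every chain may be named. Per-array values were fixed for the main chains of fat, for chains called in any comparison and for the 3 with the largest statistic for the extract; from each list the called members and those with the highest and lowest statistic between the vehicle groups are named. Dcn, Ppib and P4hb were named outside that rule, after their values were seen. The chains and lists were chosen with earlier results of these data known. Alternatives were a fit of the 2 groups compared, a replicate block, quantile normalization, median centring, leaving out the dimmest 30% of rows, testing unnamed rows, a trended and robust prior, the lowest row per gene, the submitters' threshold (unadjusted p under 0.05 and a fold over 1.1), each array left out, and wild type arrays 1 and 2 left out together. Promoter windows came from RefSeq (GRCm38.p6), and neighbouring genes from its gene table.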

Additional observations from a re-analysis of the deposited data

How the results depend on the processing

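No chain or listed gene changed direction while called, and 0 of 42 chains passed for the extract under each alternative run, the submitters' threshold included. Chains called higher in ob/ob vehicle relative to wild type numbered 3, and 6 at the submitters' threshold. They numbered 4 with only the 2 groups compared, with a replicate block and with quantile normalization. Those called lower numbered 2, and 1 with only the 2 groups compared, 1 with a replicate block, 1 with a trended and robust prior and 8 at the submitters' threshold. Leaving out 1 array in turn gave 3 to 5 higher and 1 to 4 lower, with both upper ends reached without wild type array 3. Without wild type arrays 1 and 2 the median difference of the chains was −0.09, against 0.01 over all rows, and the calls that changed are named above. In ob/ob VE relative to wild type, 6 chains were lower, 11 at the submitters' threshold, and 2 to 8 without 1 array. The count was 3 without ob/ob VE array 1 and 2 without ob/ob VE array 2. It was 4 with only the 2 groups compared, a replicate block, quantile normalization or median centring. A trended and robust prior, or leaving out the dimmest 30% of rows, gave 5. The calls lost without wild type arrays 1 and 2 are named above. The F test called 7 chains, 4 without wild type arrays 1 and 2, and 4 to 8 without 1 array, with 4 without ob/ob VE array 2 or wild type array 2. Of the 56 listed genes, 19 were called between the vehicle groups (10 without wild type arrays 1 and 2, and 13 to 23 without 1 array), 0 for the extract (2 at the submitters' threshold) and 22 for ob/ob VE relative to wild type (14 with only 2 groups, 11 without wild type arrays 1 and 2, and 13 to 26 without 1 array, the lowest without ob/ob VE array 1). Over all rows, 2754 calls between the vehicle groups ranged from 1641 to 3545 and 5 for the extract from 0 to 21 by adjusted p. They numbered 5555 and 893 at the submitters' threshold. For ob/ob VE relative to wild type, 3920 calls over all rows ranged from 2314 to 4706 by adjusted p. Col5a1, Col6a2 and Col4a4 passed under all 19 settings in both comparisons with wild type, Col4a2 in 18 of 19 between the vehicle groups, and Col6a5 in 7 of 19. For the chains the lowest row per gene repeats the main fit, and the submitters' threshold is looser, so neither setting could end these calls. Median centring moved the median of all rows by 0.107 in ob/ob VE relative to wild type, where the chains' median became −0.12. Same-numbered arrays correlated at −0.0635 to 0.181 in their deviations, so the numbers were not taken to pair the animals. The replicate block ended the calls of Col6a5, Loxl1 and Bmp1 between the vehicle groups (adjusted p = 0.0522, 0.0517 and 0.0702). It also ended those of Col6a4, Col9a1, Serpinh1, Loxl1 and Itga2 for ob/ob VE relative to wild type (0.054, 0.0701, 0.0553, 0.054 and 0.0502). Causes of these changes were not tested, and a fit with an array left out also holds fewer arrays.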
